A study of Homo sapiens with 6 samples.

Results

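The genes described here encode cytosolic and mitochondrial chaperones, the proteins that fold other proteins or hold them soluble. They were chosen by name as 38 genes of 10 classes: HSP70, HSP90, HSP60 with HSP10, 1 small heat shock protein, HSP40, BAG proteins, HSP90 co-chaperones, heat shock factors, the TRiC/CCT ring and prefoldin. All 38 were found among the 26347 gene rows of the table and all 38 passed the filter on low counts, which left 14731 genes. The RNA came from THP-1, an established human monocytic leukaemia line grown in medium with serum. One group of 3 libraries had received a negative control microRNA mimic and the other group of 3 a miR-125a-5p mimic, both 24 h before RNA was taken, so transfection itself is shared by the groups. The series' title speaks of macrophages, whereas the labels name no differentiation step.

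Totals ran from 8256149 to 10257791 counts per library, and levels are given as TMM-normalised CPM, a gene's counts relative to the scaled library total. Control library 1 stood apart on the first principal component (-38.2 against 1.14 to 16.3) and miR-125a-5p library 3 on the second (31.1 against -21.5 to 5.24). The 8 fixed monocytic markers summed to 2346 to 2470.0 CPM in control and 2291 to 2392 CPM in miR-125a-5p libraries, of which MPO, at 0.594 to 4.87 CPM, was the lowest. Of the lists for other cell types, 4 genes each, the T cell, epithelial and fibroblast sums were at most 3.21 CPM in any library, with CD3E and KRT18 at 0 throughout. The erythroid markers HBB and HBA1 were at 0 counts in all 6 libraries. The B cell list summed to 53.2 to 85.8 CPM in control and 44.1 to 62.1 CPM in miR-125a-5p libraries, of which PAX5 gave 40.5 to 81.7 CPM, while MS4A1 and CD79A were at or near 0. The endothelial list summed to 306 to 323 and 279 to 340.0 CPM, of which PECAM1, which monocytes also make, gave 277 to 338 CPM. Whether each library is its own culture is not stated in the labels, so the p-values reflect variation among these 6 libraries and this may be technical. In such bulk RNA fewer cells that make a transcript and less of it per cell cannot be told apart. A mimic is not transcribed from a gene, so no row of the table measures it directly.

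As background, HSP70 proteins bind stretches of unfolded chain in a cycle of ATP hydrolysis that HSP40 (J-domain) partners start and BAG proteins and the HSP110 protein HSPH1 end by releasing nucleotide. HSP90 takes clients such as kinases and steroid receptors onward with the help of co-chaperones. TRiC/CCT is a double ring that encloses actin and tubulin, brought to it by prefoldin, and HSP60 with its lid HSP10 does the like in the mitochondrial matrix. Transcription of many of these genes is driven by the heat shock factor HSF1 through heat shock elements in their promoters.

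A microRNA lowers transcripts mainly by pairing of its seed, bases 2 to 8, with matches in the 3′ untranslated region (3′ UTR). The mature sequence of the microRNA, from RefSeq on GRCh38.p14 at chr19:51693268-51693291 on the plus strand, is shown first with its seed in capitals, because the matches searched for in the chaperone genes are made from it.

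hsa-miR-125a-5p: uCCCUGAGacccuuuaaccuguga

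The matches were CTCAGGGA (8mer), CTCAGGG (7mer-m8), TCAGGGA (7mer-A1) and TCAGGG (6mer), each gene counted under its best one, in the longest 3′ UTR of GENCODE 29. All 38 chaperone genes had a 3′ UTR to search. No 8mer and no 7mer-A1 was found in any of them, 1 gene had a 7mer-m8 and 3 had a 6mer only. The 4 matches are the only ones in these 3′ UTRs and are shown with the match in capitals.

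PFDN6 (7mer-m8): accccagccgcCTCAGGGccccggtggagt

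BAG1 (6mer): tacctgatttctTCAGGGctgctgggggca

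DNAJA3 (6mer): cactgttgctagTCAGGGgcttggttctcc

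DNAJB6 (6mer): gaatcctgcccgTCAGGGcaccttttcctc

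On GRCh38 the PFDN6 match lies at chr6:33297317-33297323 on the plus strand, in exon 4 of 4 of 1 long transcript. It is in 1 of 4 annotated 3′ UTRs of the gene and past the end that RefSeq gives for PFDN6, 33290934. The BAG1 match lies at chr9:33255130-33255135 (minus strand, exon 7 of 7, in 2 of 3 annotated 3′ UTRs). The DNAJA3 match is at chr16:4456382-4456387 (plus strand, exon 12 of 12, in 3 of 3) and that of DNAJB6 at chr7:157416576-157416581 (plus strand, exon 10 of 10, in 1 of 3). The log2 fold changes of these 4 genes, miR-125a-5p over control, were -0.12 (SE 0.27) for PFDN6, 0.01 (SE 0.091) for BAG1, -0.02 (SE 0.13) for DNAJA3 and 0.19 (SE 0.12) for DNAJB6.

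Chaperone genes thus held a match of any kind in 10.5% of their 3′ UTRs, against 37.3% of 12796 tested genes searched. Their 3′ UTRs were also shorter, with a median of 542 bases against 1366. Per length the 6-base core occurred 4 times in 38.6 kb, or 0.104 times per kb, against 0.314 times per kb over all searched genes. In the coding sequence 11 of 38 genes (28.9%) had a match, against 35.7% of tested genes, with no 8mer among them. These shares describe the annotation and were given no test. Over all searched genes, the median log2 fold change was -0.0645 for the 768 with an 8mer and -0.0283 with a 7mer-m8. It was -0.0098 with a 7mer-A1, 0.0106 with a 6mer and 0.0148 with no match, and these medians were given no test either.

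**Figure D1:**
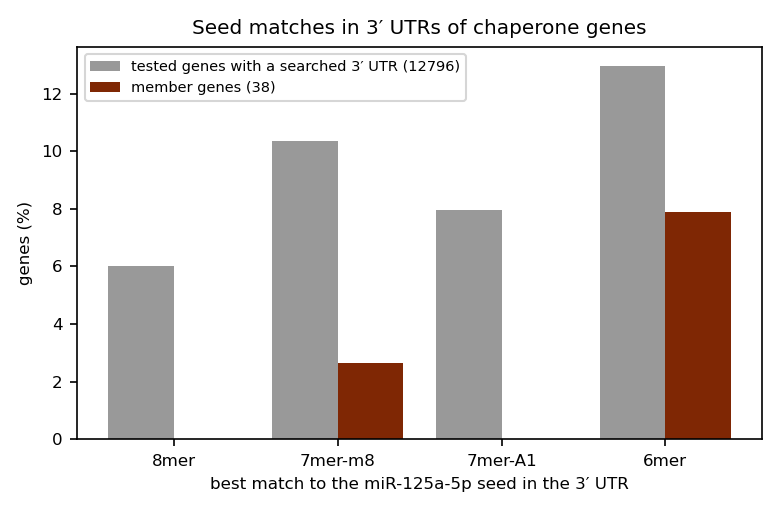
Percentage of genes (vertical axis) by their best match to the miR-125a-5p seed in the longest 3′ UTR (horizontal axis), for tested genes (grey) and the 38 chaperone genes (brown). No chaperone gene has an 8mer or a 7mer-A1, 2.63% have a 7mer-m8 and 7.89% a 6mer.

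The comparison of the groups asked whether chaperone transcripts differed after the miR-125a-5p mimic. None of the 38 passed edgeR's quasi-likelihood test at an adjusted p of 0.05 in either direction, where over all genes 0% were called higher and 0.0272% lower. DESeq2 and limma voom called 0 of the 38 too. Of the 38, 31 (81.6%) had a positive log2 fold change, against 50.2% of all tested genes, and their median was 0.09 against 0.00 over all genes. Before adjustment, 3 genes had p under 0.05 with a higher level, HSPD1, HSPH1 and CCT2 (7.89%, against 2.69% of all genes), and 0 with a lower one (against 3.22%).

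All 3 miR-125a-5p libraries lay above all 3 control libraries for 5 genes, BAG3, PTGES3, CCT2, CCT4 and CCT7 (13.2%, against 5.31% of all genes), and below them for none (against 5.9%). The sizes were small: leaving aside PFDN4, at 0.981 to 2.40 CPM, no log2 fold change was above 0.29, a level 22.1% higher. The lowest was -0.35, for PFDN2, a level 21.6% lower. The genes share libraries and vary together, so 31 of 38 is not a count of 38 independent observations. They were also chosen with earlier results of these data known, so the shares are no unbiased contrast with all genes. Library 2 of the miR-125a-5p group had the highest level of 17 of the 38 genes, where it was highest for 15.9% of all genes, and without it 25 of 38 fold changes were positive. Without control library 1, or without miR-125a-5p library 3, it was 33 of 38.

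**Figure D2:**
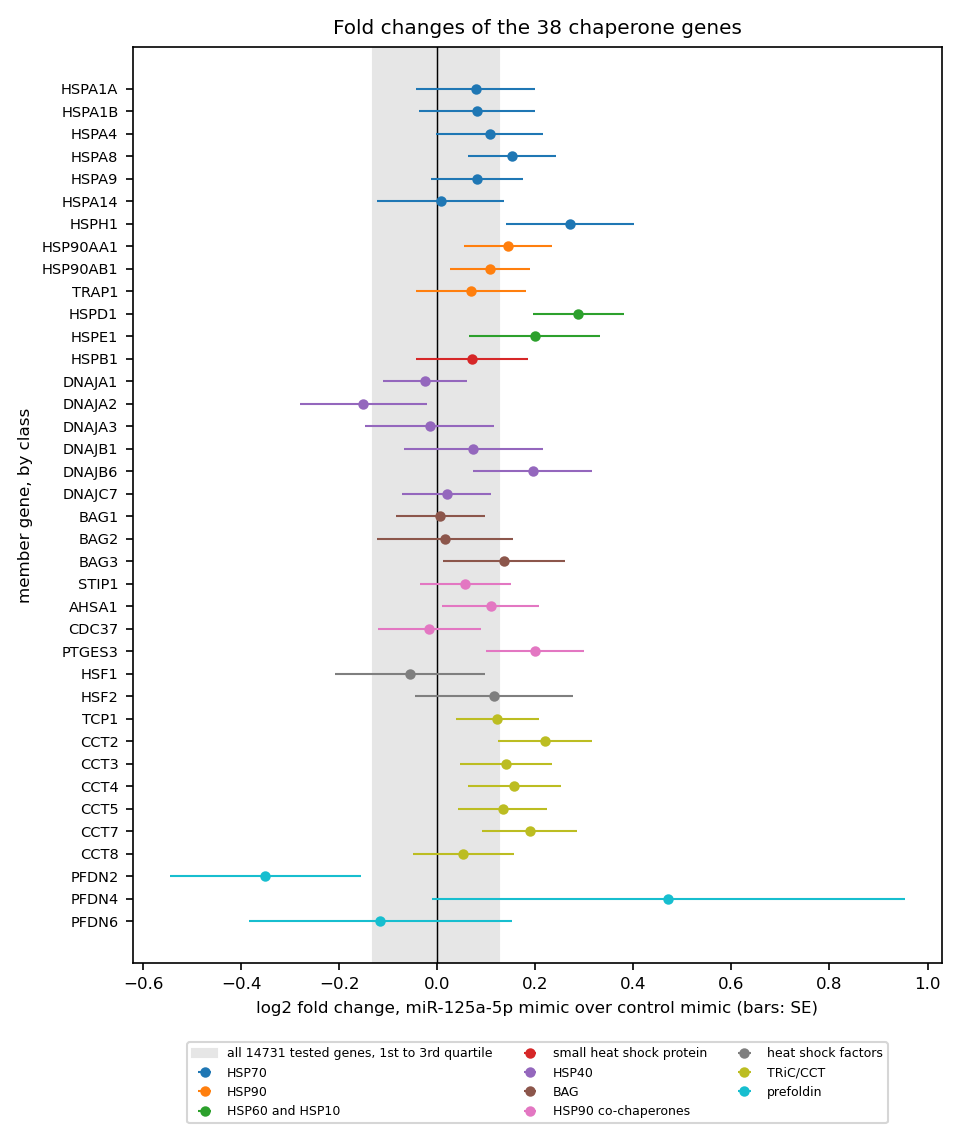
Log2 fold change of each chaperone gene (horizontal axis, miR-125a-5p over control mimic, bars are SE, 3 libraries in each group), with genes in rows coloured by class. The grey band spans the interquartile range of all 14731 tested genes, and most chaperone genes lie to the right of 0, with PFDN2 at -0.35 and PFDN4 at 0.47 farthest out.

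The HSP70 class held 7 genes, all with a positive fold change, from 0.01 (HSPA14) to 0.27 (HSPH1), with a median of 0.08. Without miR-125a-5p library 2 that median was 0.0041, and HSPA1A (-0.0347) and HSPA1B (-0.0243) were negative. HSPA8, the constitutive cytosolic HSP70 HSC70, was the most abundant of all 38 per transcript length, at 943 CPM per kb in control libraries. It stood at 2031, 2445 and 2496 CPM in control libraries 1 to 3 and at 2597, 2777 and 2373 CPM in miR-125a-5p libraries 1 to 3. The groups overlapped, since miR-125a-5p library 3 lay below control libraries 2 and 3. The log2 fold change was 0.15 (SE 0.090, edgeR adjusted p = 0.882) and was 0.06 without control library 1, the lowest of the 6.

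HSPH1 encodes HSP110, which exchanges nucleotide on HSP70 and helps to dissolve aggregates. Its level was 329, 437 and 454 CPM in control and 523, 584 and 363 CPM in miR-125a-5p libraries. Libraries 1 and 2 of the miR-125a-5p group were the highest, and library 3 lay within the controls. The log2 fold change was 0.27 (SE 0.13, edgeR unadjusted p = 0.0494, adjusted p = 0.843). It was 0.44 without miR-125a-5p library 3, 0.12 without miR-125a-5p library 2 and 0.14 without control library 1, so its size rested on which of these libraries was kept.

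HSPA1A and HSPA1B are the stress-induced HSP70 genes and lie 12195 bases apart on chromosome 6. Their coding sequences, of 1926 bases each, differ at 4 positions (99.8% identity), and 72.6% of the 50-base windows of the HSPA1A transcript also occur in that of HSPA1B. HSPA1A stood at 95.5, 125 and 92.7 CPM in control and 94.5, 126 and 109 CPM in miR-125a-5p libraries. HSPA1B stood at 97.9, 128 and 94.6 CPM and at 101, 128 and 109 CPM. The ratio of their counts was 0.995 to 1.07 in every library, so the pair is read as 1 measurement whose split between the genes is uncertain. Their summed level gave a log2 fold change of 0.08 (SE 0.11, edgeR adjusted p = 0.959), and library 2 was the highest in both groups.

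For the other HSP70 genes, the log2 fold changes were 0.11 (HSPA4), 0.08 (HSPA9) and 0.01 (HSPA14). HSPA9, the mitochondrial HSP70 mortalin that pulls proteins through the inner membrane, had 335 ± 27.7 CPM (SD, n = 3) in control and 354 ± 30.8 CPM (SD, n = 3) in miR-125a-5p libraries. HSPA4, a second HSP110-type exchange factor, had 204 ± 18.4 and 219.8 ± 36.9 CPM. HSPA14, an atypical HSP70 bound to ribosomes, had 57.1 ± 7.73 and 57.4 ± 8.47 CPM. In none of them did the groups separate.

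The 3 HSP90 genes had fold changes of 0.07 to 0.14. HSP90AA1, the inducible cytosolic HSP90 alpha, stood at 1780.0, 1910.3 and 2021 CPM in control and 2204, 2286 and 1822 CPM in miR-125a-5p libraries. HSP90AB1, the constitutive HSP90 beta, stood at 2047, 2094 and 2172 CPM and at 2339, 2359 and 2104 CPM. For both, libraries 1 and 2 of the miR-125a-5p group lay above every control library and library 3 did not. The log2 fold changes were 0.14 (SE 0.090, edgeR adjusted p = 0.884) and 0.11 (SE 0.081, edgeR adjusted p = 0.909), and they were 0.24 and 0.16 without miR-125a-5p library 3, but 0.08 and 0.08 without miR-125a-5p library 2. TRAP1, the mitochondrial HSP90, was far less abundant, at 58.0 ± 3.59 and 60.8 ± 3.91 CPM (SD, n = 3 each).

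Of the HSP90 co-chaperones, PTGES3 encodes p23, which holds HSP90 in its closed, ATP-bound form. It stood at 85.7, 82.2 and 81.1 CPM in control and at 91.4, 96.4 and 98.1 CPM in miR-125a-5p libraries, with no overlap. The log2 fold change was 0.20 (SE 0.10, edgeR unadjusted p = 0.0588, adjusted p = 0.845), and it stayed between 0.18 and 0.23 when any 1 library was left out. STIP1, the adaptor HOP that links HSP70 to HSP90, stood at 233, 228 and 248 CPM and at 231, 269.6 and 237 CPM, within overlapping ranges. AHSA1, which speeds the HSP90 ATPase, had a log2 fold change of 0.11 (SE 0.099) and CDC37, which brings kinases to HSP90, of -0.02 (SE 0.10).

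**Figure D3:**
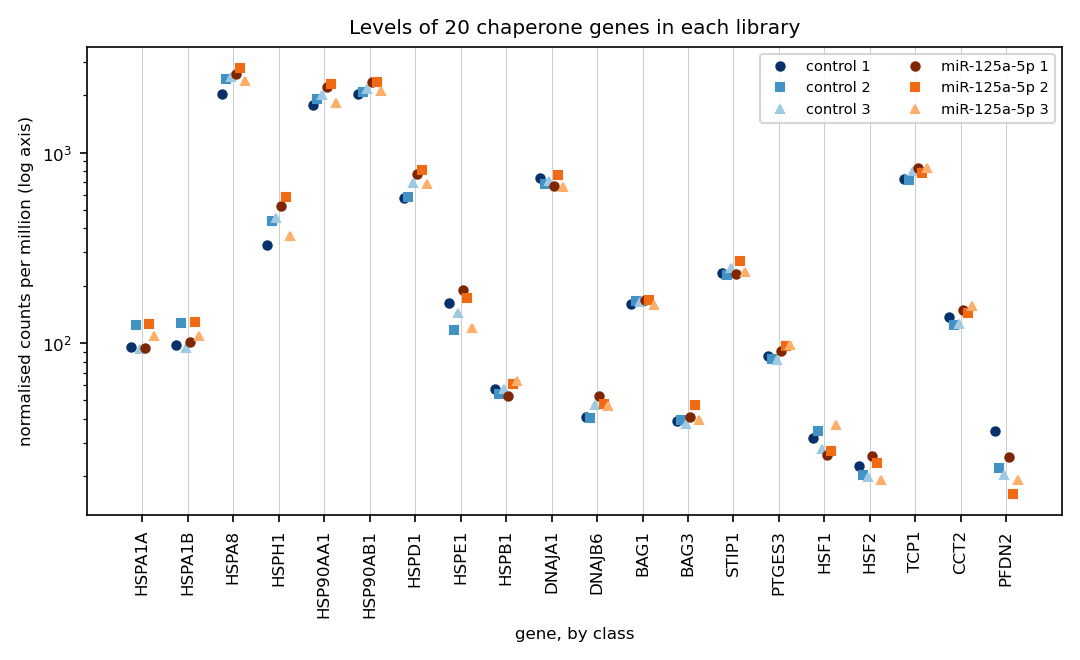
Normalised CPM (vertical log axis) of 20 chaperone genes in each library, controls in blue and miR-125a-5p libraries in orange and brown, 1 symbol per library. Levels span from 16.1 CPM for PFDN2 to 2777 CPM for HSPA8, and the difference between groups is small beside the difference between genes.

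The mitochondrial folding chamber is built from HSP60 and HSP10. HSPD1, which encodes HSP60, stood at 581, 586 and 691 CPM in control and at 773, 812 and 682 CPM in miR-125a-5p libraries. Libraries 1 and 2 of the miR-125a-5p group were the highest, and library 3 lay just below control library 3. Its log2 fold change of 0.29 (SE 0.093) had the smallest p of the 38 genes (edgeR unadjusted p = 0.0049, adjusted p = 0.555), and stayed between 0.23 and 0.37 when any 1 library was left out. HSPE1, the HSP10 lid, starts 105 bases from HSPD1 on the opposite strand of chromosome 2, and the pair is known for its bidirectional promoter. HSPE1 stood at 162, 117 and 143 CPM and at 191, 173 and 120.1 CPM (log2 fold change 0.20, SE 0.13, edgeR adjusted p = 0.898). That value was 0.06 without miR-125a-5p library 1 and 0.37 without miR-125a-5p library 3. The ratio of HSPD1 to HSPE1 counts ran from 3.59 in control library 1 to 5.68 in miR-125a-5p library 3.

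HSPE1 also shares exons with the read-through gene HSPE1-MOB4, whose row held 0.918 to 1.17 times the counts of HSPE1. Its log2 fold change was 0.28 (SE 0.11, edgeR adjusted p = 0.739), and which reads belong to which of these rows cannot be told from the counts. Among all 5 mitochondrial members (HSPA9, TRAP1, HSPD1, HSPE1 and DNAJA3) the median fold change was 0.08 and among the 33 cytosolic members 0.11, with HSPD1 and HSPE1 at the top of the mitochondrial range and DNAJA3 at its bottom.

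The HSP40 class had no common direction, with 3 positive and 3 negative fold changes and a median of 0.00. DNAJA1, the most abundant J-domain partner, stood at 733, 686 and 708 CPM in control and 668, 762 and 660.4 CPM in miR-125a-5p libraries. DNAJB6, which keeps polyglutamine proteins from aggregating, stood at 41.1, 40.6 and 47.1 CPM and at 52.9, 48.0 and 46.5 CPM (log2 fold change 0.19, SE 0.12, edgeR adjusted p = 0.884). DNAJB1, the heat-inducible J-domain protein, had 61.4 ± 15.3 and 64.8 ± 8.30 CPM (SD, n = 3 each), and DNAJA2, a constitutive one, had 67.4 ± 13.7 and 60.8 ± 5.97 CPM. DNAJA3, the mitochondrial J-domain protein, had 42.6 ± 2.90 and 42.2 ± 6.28 CPM. DNAJC7, which binds both HSP70 and HSP90, had 213 ± 9.32 and 215 ± 12.8 CPM. The ranges of the groups overlapped for all 6.

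BAG3, the BAG protein that couples HSP70 to selective autophagy, stood at 39.0, 39.4 and 37.7 CPM in control and at 40.8, 47.2 and 39.5 CPM in miR-125a-5p libraries. The groups did not overlap, but miR-125a-5p library 3 was only just above control library 2, and the log2 fold change of 0.14 (SE 0.12, edgeR adjusted p = 0.927) was 0.05 without miR-125a-5p library 2. BAG1, which also binds BCL2, stood at 161, 167 and 164 CPM and at 168, 167 and 159 CPM, and its log2 fold change was 0.01. BAG2, an inhibitor of the HSP70-bound ubiquitin ligase CHIP, had a log2 fold change of 0.02 (SE 0.14). HSPB1, the small heat shock protein HSP27, stood at 57.6, 54.2 and 57.1 CPM and at 52.9, 61.2 and 63.4 CPM. The lowest and the highest of its 6 values were both in miR-125a-5p libraries, and its log2 fold change of 0.07 was 0.14 without library 1 of that group and 0.02 without library 3.

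In the TRiC/CCT ring the 7 member subunits all had positive fold changes, from 0.05 (CCT8) to 0.22 (CCT2), and their median was 0.14. For a value per library, the level of each gene in log2 CPM was set against the mean of the controls and the median taken over the class. These medians were 0.03, -0.05 and 0.06 in control libraries 1 to 3 and 0.16, 0.12 and 0.16 in miR-125a-5p libraries 1 to 3. The difference of 0.14 between the group means compares with an SD of 0.058 among controls and 0.022 among miR-125a-5p libraries (n = 3 each), and was given no test because the members were chosen with earlier results known. It was the 1 class of 10 whose medians did not overlap between groups. With 3 libraries against 3, unrelated groups separate in either direction in 10% of cases. A count of 1 class in 10 does not exceed that share. The classes share libraries, so they are not 10 independent cases, and the separation was not tested. The medians over the 33 cytosolic members did not overlap either, whereas those over all 38 members did.

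CCT2, the beta subunit, stood at 137, 124 and 125 CPM in control and at 149.9, 144 and 156 CPM in miR-125a-5p libraries, with no overlap. Its log2 fold change was 0.22 (SE 0.095, edgeR unadjusted p = 0.0296, adjusted p = 0.799), between 0.19 and 0.27 when any 1 library was left out. CCT4 stood at 152, 135 and 152 CPM and at 169, 162 and 158 CPM, and CCT7 at 109, 105 and 116 CPM and at 130.4, 119 and 126 CPM. Both also had groups that did not overlap, with log2 fold changes of 0.16 (SE 0.095) and 0.19 (SE 0.097). TCP1, the alpha subunit, stood at 724, 722 and 797 CPM and at 833, 779 and 831 CPM, where miR-125a-5p library 2 fell below control library 3. The groups overlapped for CCT3 and CCT5 as well. For CCT3, miR-125a-5p library 2 (221 CPM) lay below control library 1 (226 CPM). For CCT5, miR-125a-5p library 2 (318 CPM) lay below control library 3 (323 CPM). CCT8 also overlapped, at 195 CPM in miR-125a-5p library 3 against 219 to 262 CPM in the other 5.

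**Figure D4:**
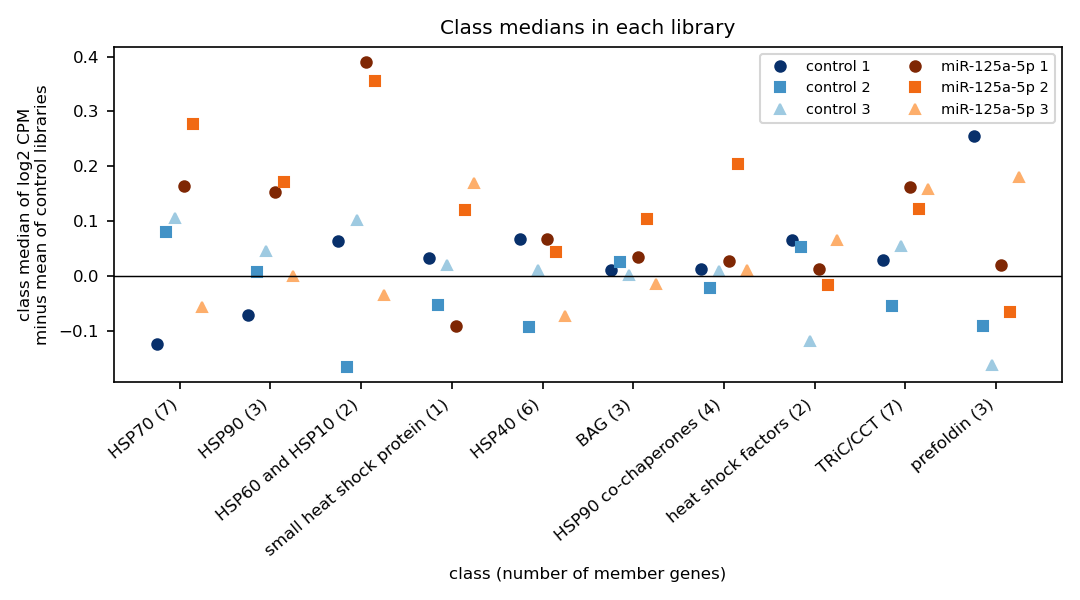
Median over each class of log2 CPM minus the mean of the 3 control libraries (vertical axis), for each library and class, with the number of genes in brackets. The TRiC/CCT medians of the miR-125a-5p libraries (0.12 to 0.16) lie above those of the controls (-0.05 to 0.06), and every other class overlaps.

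The 8 subunits of a TRiC/CCT ring are present once each, yet their transcripts were not equally abundant per length. In control libraries TCP1 stood at 299 ± 17.2 CPM per kb (SD, n = 3), and CCT8 followed at 114 ± 4.46, CCT3 at 101 ± 3.13, CCT5 at 80.4 ± 6.76 and CCT2 at 63.1 ± 3.62. CCT4 (58.0 ± 3.94) and CCT7 (57.3 ± 2.80) came last and did not differ beyond their spread. CCT6A, the zeta subunit and not one of the 38, lay at 102 ± 9.73 CPM per kb, within the spread of CCT3. In miR-125a-5p libraries TCP1 was again the highest, at 326 ± 12.3 CPM per kb, and CCT4 and CCT7 the lowest, at 64.7 ± 2.28 and 65.3 ± 2.86. These levels divide by the length of 1 annotated transcript, which need not be the form that THP-1 cells make.

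**Figure D5:**
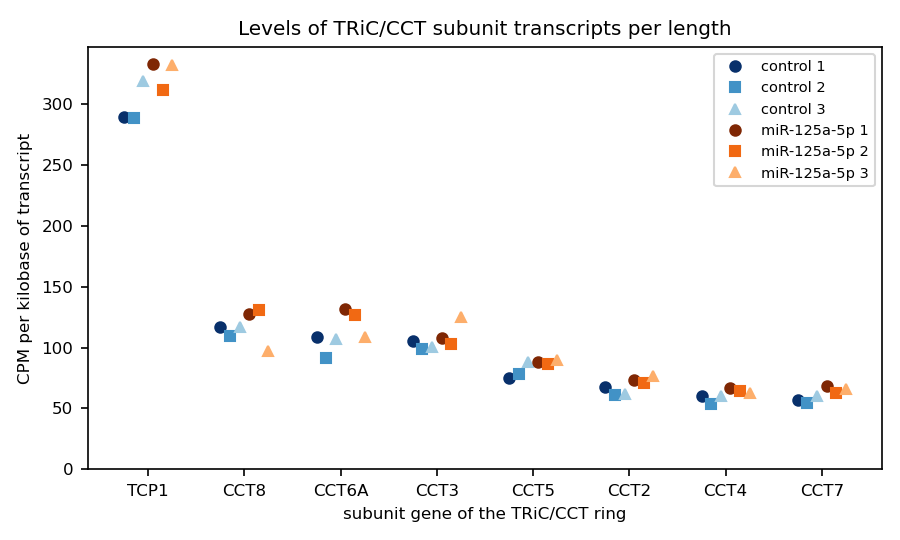
Levels of the transcripts of 8 TRiC/CCT subunits in CPM per kilobase of transcript (vertical axis, from 0), 1 symbol per library. TCP1 lies between 289 and 333 in all 6 libraries, and the other 7 subunits between 53.5 and 132.

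Prefoldin, the hexamer that hands unfolded actin and tubulin to the ring, was measured through 3 of its subunits, 1 positive and 2 negative, with a median of -0.12. That median was 0.03 without control library 1 and 0.04 without miR-125a-5p library 1. PFDN2 stood at 34.4, 22.0 and 20.3 CPM in control and at 25.3, 16.1 and 19.2 CPM in miR-125a-5p libraries, and control library 1 was the highest. The log2 fold change was -0.35 (SE 0.20, edgeR adjusted p = 0.864) and was -0.07 without control library 1. PFDN6, the gene with the 7mer-m8 match, had 7.01 ± 1.16 and 6.49 ± 1.49 CPM (SD, n = 3 each). PFDN4 had 1.51 ± 0.467 and 2.08 ± 0.329 CPM and a log2 fold change of 0.47 (SE 0.48), from 10 to 20 counts per library. The prefoldin subunits outside the 38 lay on both sides of 0, with log2 fold changes of 0.31 (SE 0.17) for VBP1, 0.02 (SE 0.15) for PFDN1 and -0.11 (SE 0.12) for PFDN5.

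HSF1 and HSF2, the factors that drive heat shock transcription, were themselves low. HSF1 stood at 31.6, 34.3 and 27.7 CPM in control and at 26.0, 27.1 and 37.1 CPM in miR-125a-5p libraries. HSF2 stood at 22.6, 20.4 and 19.9 CPM and at 25.5, 23.5 and 19.2 CPM. The log2 fold changes were -0.06 (SE 0.15) and 0.12 (SE 0.16), with edgeR adjusted p of 0.980 and 0.955, and the groups overlapped for both. Leaving out 1 library gave -0.24 (without miR-125a-5p library 3) to 0.04 (without miR-125a-5p library 1) for HSF1 and 0.02 (without miR-125a-5p library 1) to 0.22 (without miR-125a-5p library 3) for HSF2. HSF1 is held inactive by chaperone binding and switched on through its protein, so its transcript level does not measure its activity.

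Heat shock elements were searched in RefSeq promoters, 250 bases before to 50 after each annotated start on GRCh38.p14, as 3 units of TTC and GAA in alternation with 2 bases of any kind between units, on both strands. Of the 38 genes 35 had a promoter in the table, and 6 of these (17.1%) held an element, against 0.524% of 11451 tested genes with a promoter. The elements are shown, in capitals within 30 bases, to show which of the genes carry this motif and where.

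HSPA8 (-49): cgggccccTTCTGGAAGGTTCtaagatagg

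HSPA8 (-224): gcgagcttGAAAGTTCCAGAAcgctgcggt

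HSP90AA1 (-82): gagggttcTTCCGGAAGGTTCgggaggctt

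HSP90AB1 (-106): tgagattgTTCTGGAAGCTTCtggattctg

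HSP90AB1 (-159): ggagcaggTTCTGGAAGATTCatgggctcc

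HSPD1 (-234): attttctgGAAAGTTCTGGAAccgagcgag

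DNAJA1 (9): gccgggcgGAACTTTCCAGAAcgctcggtg

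DNAJB6 (-125): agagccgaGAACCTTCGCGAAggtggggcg

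The numbers in brackets are bases from the annotated start to the middle of the element, negative before it. The start is that of the promoter window which holds the element, and for HSPA8, HSP90AA1, HSP90AB1 and HSPD1 it lies downstream of the first base of the gene. HSPA8 has its elements at chr11:123062179-123062191 and chr11:123062354-123062366 (minus strand), and HSP90AA1 at chr14:102087120-102087132 (minus strand). Those of HSP90AB1 are at chr6:44247831-44247843 and chr6:44247778-44247790 (plus strand), and that of HSPD1 is at chr2:197500068-197500080 (minus strand), where another element, at chr2:197500073-197500085, overlaps it. DNAJA1 has its element at chr9:33025276-33025288 and DNAJB6 at chr7:157336873-157336885, both on the plus strand. The fold change was positive in 5 of these 6 genes (median 0.15) and in 25 of the 29 genes whose promoter held no element (median 0.08). HSPE1, the neighbour of HSPD1, is among the 29 because its own window did not reach the HSPD1 elements, so the split separates this pair. Only 3 exact units within the window were counted, so an element with a changed base or farther away was missed. HSPA1A and HSPA1B are among the genes with no such match, which does not show that they lack an element. A match is no proof of binding, and the shares were given no test.

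Other genes of the chaperone network were taken from a fixed list of 61, also chosen with earlier results known, of which 56 passed the filter. edgeR called none, 39 of 56 (69.6%, against 50.2% of all genes) lay above 0 and the median was 0.07. Before adjustment 3 had p under 0.05 with a higher level (5.36%, against 2.69%) and 0 with a lower one (against 3.22%). The groups did not overlap for 6 that were higher (10.7%, against 5.31%) and for 1, HSPA6, that was lower (1.79%, against 5.9%). ST13, the HSP70 co-chaperone HIP, had 284 ± 18.9 and 336 ± 18.0 CPM (SD, n = 3 each) with no overlap, a log2 fold change of 0.24 (SE 0.090, edgeR adjusted p = 0.662). CCT6A had 278 ± 26.4 and 332 ± 33.3 CPM and a log2 fold change of 0.26 (SE 0.098, edgeR adjusted p = 0.681). TIMM44, which anchors mitochondrial HSP70 at the import channel, had 4.61 ± 1.65 and 7.75 ± 0.554 CPM and a log2 fold change of 0.75 (SE 0.29, edgeR adjusted p = 0.697).

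Of the genes of that list with a negative fold change, the 3 with the smallest p were DNAJB12, a J-domain protein of the endoplasmic reticulum membrane (log2 fold change -0.32, SE 0.17, and -0.18 without control library 1), FKBP5, a glucocorticoid-induced HSP90 co-chaperone (-0.16, SE 0.097, and -0.09 without control library 2), and HSPA6. HSPA6 encodes an HSP70 made almost only under strong stress, and its promoter holds an element at -68. It stood at 17.5, 19.5 and 17.8 CPM in control and at 15.5, 16.6 and 12.7 CPM in miR-125a-5p libraries, with no overlap and a log2 fold change of -0.29 (SE 0.18, edgeR adjusted p = 0.884) that was -0.19 without miR-125a-5p library 3. HSPA7, a pseudogene copy of HSPA6 chosen after its values were seen, stood at 33.7, 43.6 and 35.5 CPM and at 26.5, 26.4 and 19.5 CPM (log2 fold change -0.63, SE 0.15, edgeR adjusted p = 0.289). How reads were shared between such copies was not stated.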

How the data were processed

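Counts deposited by the authors, whole and not normalized, came as 1 table of NCBI gene identifiers by 6 libraries. The submitters' processing notes list hg19, bcl2fastq, TopHat and edgeR. Counting tool, annotation and strand setting: not given in the sources used here, so overlapping genes and near-identical copies are uncertain. Identifiers were matched to RefSeq symbols (GRCh38.p14, names only) for 99.5% of rows, and 0 columns belonged to no library. The members and lists were chosen with earlier results of these data known.

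Genes were filtered with filterByExpr, scaled with TMM (trimmed mean of M-values) and tested with edgeR 4.0.16 (R 4.3.3, glmQLFit and glmQLFTest, no covariate), adjusted by Benjamini-Hochberg over 14731 genes with 0.05 as the threshold. An SE is the log2 fold change divided by the root of F. Library medians used log2 CPM with a prior count of 2. Levels per kb used the longest principal transcript of GENCODE 29 (GRCh38). Replicate libraries differed beyond sampling noise (chi-square per gene of 4.00 to 12.1 within groups). The fit was tested on simulated counts. The outcome is not given here, so it is no support for the absence of calls at such small changes. Values in every library are given, by rule, for HSPA1A, HSPA1B, HSPD1, HSPE1, both factors, and the most abundant and smallest-p member of each class. Library values of CCT4, CCT7 and HSPA6, and of HSPA7 outside the lists, were added after seeing them. Of the other genes, the 3 with the smallest p in each direction and CCT6A, PFDN1, VBP1, PFDN5 and HSPA6 were named. One marker gene is not reported here.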

Additional observations from a re-analysis of the deposited data

How the results depend on the processing

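No chaperone gene was called in any fit over all genes: RLE and upper quartile factors, no count filter, DESeq2 1.42.0, limma 3.58.1 (voom), the replicate block, and each library left out. Nor was one called at a threshold of 0.1. The calls over all genes moved more: 11 higher and 41 lower with no filter, 2 and 11 with DESeq2, 0 and 9 with the replicate block, 0 and 7 at the threshold of 0.1, and 0 to 2 higher and 3 to 14 lower with 1 library left out. The causes were not tested. With 1 library left out, 1 to 6 chaperone genes were higher and 0 to 1 lower at an unadjusted p under 0.05. With the replicate block, and with no filter, 1 was lower. The labels do not say that the numbers pair the libraries, and the counts do not settle it. Same-numbered libraries had deviations that correlated at -0.016 to 0.056, and differently numbered ones at -0.064 to 0.046. The highest value was that of the libraries numbered 1, followed by control library 2 with miR-125a-5p library 3. Positive fold changes numbered 25 to 33 of 38 with 1 library left out and 31 under the 6 other fits of all 38. The class median of TRiC/CCT ranged from 0.11 to 0.18, HSP60 with HSP10 from 0.16 to 0.36, HSP70 from 0.00 to 0.19, prefoldin from -0.28 to 0.04, and BAG from -0.0060 to 0.0949. Among the 20 members and 9 other genes named by rule, these log2 fold changes took the other sign with 1 library left out, and further members did too: HSPA1A (-0.0347 to 0.2245), HSPA1B (-0.0243 to 0.2274), HSF1 (-0.2376 to 0.0366), DNAJA1 (-0.0956 to 0.0092), BAG1 (-0.0099 to 0.0285), STIP1 (-0.0157 to 0.0990), PFDN1 (-0.0916 to 0.0767) and PFDN5 (-0.2662 to 0.0029). Under RLE and upper quartile factors the median of all genes was 0.0013 and 0.0088.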
